A study of Homo sapiens with 4 samples.

Results

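The replication-dependent histone genes encode the core histones H2A, H2B, H3 and H4 and the linker histones H1-1 to H1-5. Their transcripts were measured with Illumina expression beadchips in the human cutaneous melanoma line MelJuSo. Members were taken by platform gene symbol (H2AC, H2BC, H3C or H4C followed by a digit, or H1-1 to H1-5), with pseudogenes left out. This gave 70 probes of 63 genes, out of 48803 probes on the array, of which 27578 carried 1 gene symbol. One of the 70 carried 2 symbols and was named to neither gene.

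The series holds 4 arrays of total RNA, 1 per group. The groups were cells treated with 10 µM aclarubicin, with 9 µM doxorubicin, or with 10 µM etoposide and 10 µM aclarubicin, and untreated cells. Drug exposure lasted 2 h in every treated group, and RNA was taken 1 day after the drug was washed out. Doxorubicin and etoposide trap topoisomerase II on cut DNA, whereas aclarubicin keeps the enzyme off DNA. All groups come from 1 cell line with 1 array each, so there is no replicate spread and no p-value, and the differences compare single arrays.

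Cells make these histones in S phase, when new DNA must be packed into nucleosomes. Their genes lie in clusters, lack introns, and yield mRNAs that end in a conserved stem-loop in place of a poly(A) tail. The stem-loop is bound by SLBP, and both the loop and its binding protein are needed for processing, translation and decay when replication stops. Some histone genes also give polyadenylated transcripts, mainly in cells that are not dividing. Standard Illumina labelling usually primes on poly(A). The labels do not name the primer, and whether the signals come from stem-loop or polyadenylated transcripts was not tested.

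Many histone genes code for the same protein and differ little in sequence, so a probe may also bind transcripts of near-identical copies, and each value below is that of a named probe. Probe signals are in arbitrary units and were not background-subtracted. A probe counts as detected where its deposited detection p-value was under 0.01. Log2 differences were taken after normexp background correction and quantile normalization. Where only 1 of the 2 arrays detected a probe, the difference is a lower bound in respect of detection alone. It is a bound on the scale named, and the scaling of the arrays moves it like any other difference, so such folds are given both with quantile normalization and without scaling between arrays.

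The promoters of 58 of the 63 genes were found in RefSeq (GRCh38.p14), and the 6 below stand for the patterns described further on. H2BC12, H2BC5 and H1-2 were higher than in untreated cells on all 3 treated arrays, while H2BC8, H2BC21 and H4C12 were called at least 2-fold higher on the arrays with aclarubicin and not after doxorubicin. Each line gives the 150 bases before the transcript start, 5′ to 3′ on the gene's strand, with capitals, on either strand, for the TATA box letters TATAAA, the CCAAT box, the octamer ATTTGCAT and the H1 box AAACACA.
H2BC12 (chr6:27146859-27147008, minus strand): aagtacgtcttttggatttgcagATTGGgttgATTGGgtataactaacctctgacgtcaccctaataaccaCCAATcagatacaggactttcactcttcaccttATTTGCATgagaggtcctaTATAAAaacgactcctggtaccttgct
H2BC5 (chr6:26157971-26158120, plus strand): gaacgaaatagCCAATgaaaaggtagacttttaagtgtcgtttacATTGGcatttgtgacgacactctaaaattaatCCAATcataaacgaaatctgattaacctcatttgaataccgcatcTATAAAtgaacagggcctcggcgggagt
H2BC8 (chr6:26216689-26216838, minus strand): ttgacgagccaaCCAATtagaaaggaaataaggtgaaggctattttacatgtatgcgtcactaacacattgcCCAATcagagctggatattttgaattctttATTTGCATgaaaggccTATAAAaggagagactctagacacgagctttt
H2BC21 (chr1:149886683-149886832, minus strand): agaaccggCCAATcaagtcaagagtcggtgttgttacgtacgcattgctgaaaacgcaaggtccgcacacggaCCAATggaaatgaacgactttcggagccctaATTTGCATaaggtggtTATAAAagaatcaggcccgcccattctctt
H1-2 (chr6:26056471-26056620, minus strand): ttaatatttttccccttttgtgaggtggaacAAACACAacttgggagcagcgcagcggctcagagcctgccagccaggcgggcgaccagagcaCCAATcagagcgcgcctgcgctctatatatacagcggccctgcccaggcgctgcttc
H4C12 (chr6:27831561-27831710, minus strand): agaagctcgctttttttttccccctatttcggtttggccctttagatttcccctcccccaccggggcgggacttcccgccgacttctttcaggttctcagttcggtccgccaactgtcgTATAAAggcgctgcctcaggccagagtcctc

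Within the 250 bases before the start, 39 of the 58 histone promoters (67.2%) held TATAAA on either strand, against 10.7% of 35116 promoters of all genes. CCAAT was found in 49 of 58 (84.5%), against 32.0% of all promoters. The octamer ATTTGCAT, the element read by OCT1 in H2B promoters, was found in 14 of 18 H2B and 10 of 14 H2A promoters, in 1 of 9 H3 promoters and in none of the H1 or H4 promoters, against 1.63% of all promoters. AAACACA was found in 5 of 5 H1 promoters and in none of the other families, against 4.82% of all promoters. These motifs do not overlap one another in the 6 printed promoters, and a match describes letters, not binding.

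The arrays as wholes differed. Between 9128 and 14773 probes were detected per array, with the lowest numbers after the combination (9128) and aclarubicin (9864), and with 14773 after doxorubicin and 13521 in untreated cells. In untreated cells 6 of 9 matched melanocyte and melanoma markers were detected, among them MITF, PMEL, TYRP1 and SOX10, while MLANA, TYR and S100B were detected on no array. Of markers of other cells, KRT10 (1 of 4 keratinocyte genes), LUM (1 of 5 fibroblast genes) and PECAM1 (1 of 3 endothelial genes) were detected in untreated cells, and 0 of 3 leukocyte genes. Probe disagreement was taken from 1066 genes for which exactly 2 probes passed detection on every array. Error shared by a whole array is not part of it. The log2 differences of such paired probes disagreed with an SD of 0.45 for aclarubicin minus untreated, 0.32 for doxorubicin minus untreated, 0.50 for the combination minus untreated and 0.17 for the combination minus aclarubicin.

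More histone probes were detected after aclarubicin than in untreated cells, although fewer probes were detected on that array as a whole. Of the 70 histone probes, 32 (45.7%) were detected after aclarubicin, 20 (28.6%) after doxorubicin, 30 (42.9%) after etoposide plus aclarubicin and 16 (22.9%) in untreated cells. Over all probes the shares were 20.2%, 30.3%, 18.7% and 27.7% in the same order. The gain on the aclarubicin arrays was spread over families: 8 of 16 H4 probes were detected after aclarubicin, 8 after the combination and 3 in untreated cells, and 5 of 12 H3 probes after aclarubicin, 4 after the combination and 2 in untreated cells. In all, 33 probes of 31 genes were detected on at least 1 array and 15 on all 4. The other 37 had signals between 37.3 and 80.3 on all arrays, where the lowest detected signal of any probe was 71.0 to 82.7 depending on the array.

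**Figure D1:**
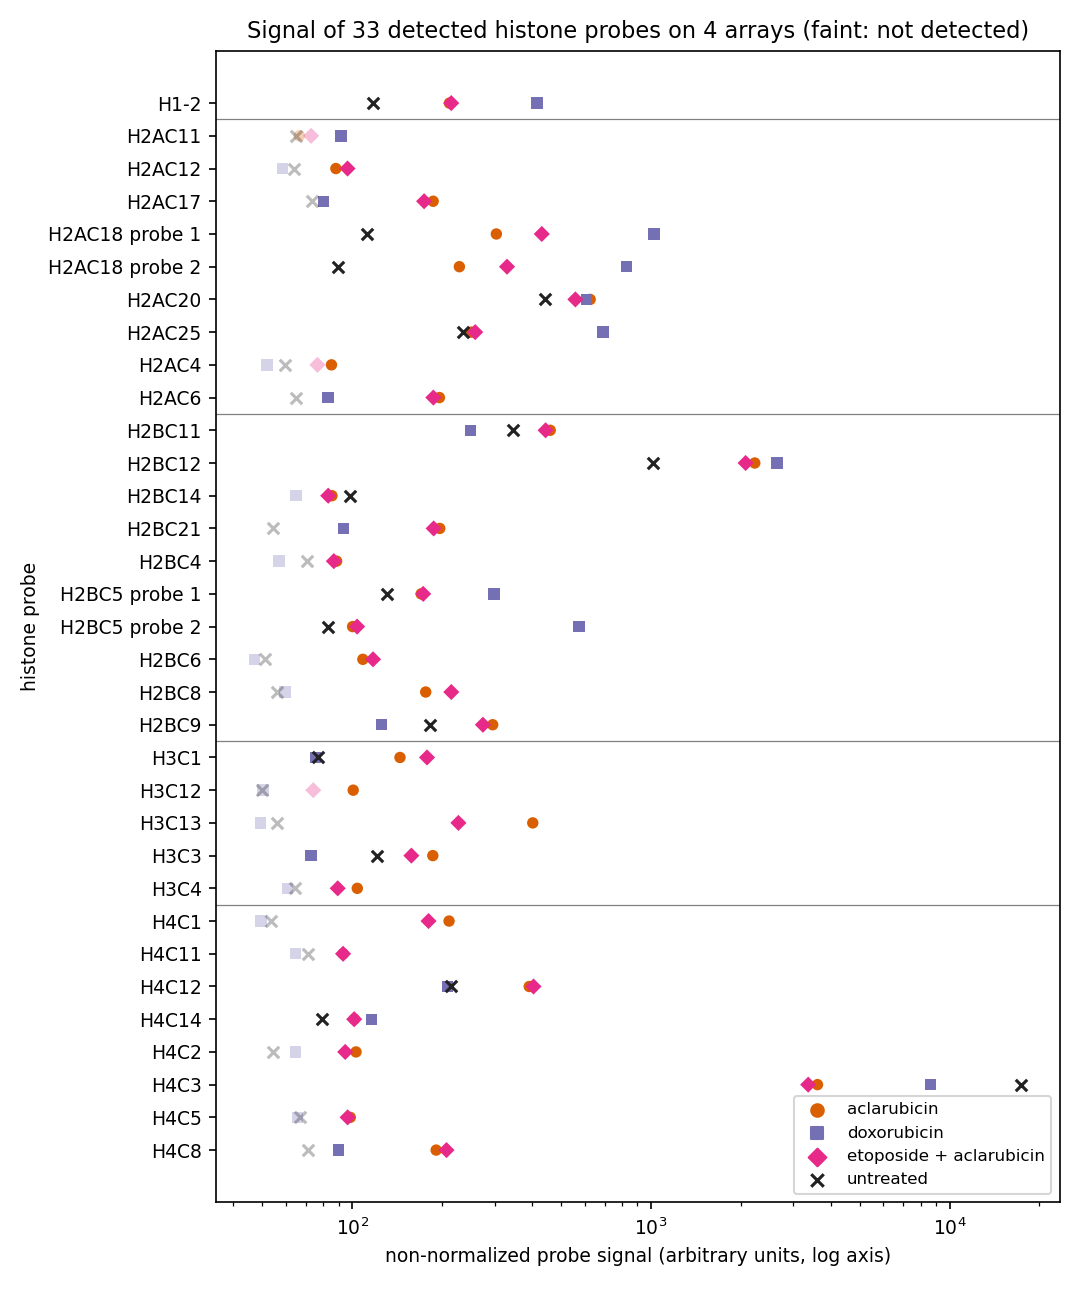
Non-normalized signal (log axis, arbitrary units) of the 33 histone probes detected on at least 1 array, 1 row per probe, grouped by family, with 1 marker per array and faint markers where the probe was not detected. H4C3 is the row whose untreated marker lies far to the right, at 17406, and in most other rows the untreated marker lies left of the 2 aclarubicin markers.

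The first comparison asked what aclarubicin changed. Of 32 histone probes detected after aclarubicin or in untreated cells, 30 were at least 2-fold higher after aclarubicin, where 18.6% of 13825 probes were called higher. One was at least 2-fold lower, where 14.1% of all probes were called lower. The median log2 difference of the histone probes was 1.59, and that of all probes 0. Among probes detected on both arrays, where no bounds enter, these medians were 1.53 and 0.33. Of these 32, 16 passed only because the aclarubicin array detected them, and all 16 were among the 30, so that the choice favours higher values. Among the 16 histone probes detected in untreated cells, 14 were higher, 1 was lower and 1 was within 2-fold, where 16.8% and 14.4% of 13521 probes so detected were higher and lower. Without scaling between arrays, 12 of the 32 histone probes were at least 2-fold higher, 7 of them bounds, where 2.81% of all probes were called higher, and 30 of the 32 lay above 0. The 12 were those of H1-2, H2AC6, H2AC17, H2AC18 (both probes), H2BC8, H2BC12, H2BC21, H3C1, H3C13, H4C1 and H4C8. The difference of a histone probe was typically 0.84 higher with quantile normalization than without scaling (median, log2 scale).

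The non-normalized signals, which no scaling has touched, went the same way. With no filter on detection, 59 of 70 histone probes (84.3%) had a higher signal after aclarubicin than in untreated cells, against 42.8% of all probes. In bulk RNA, more cells making a transcript and more transcript per cell cannot be told apart.

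H1-2 was the 1 linker histone detected, and the other 4 H1 probes were detected on no array. Linker histones bind the DNA that enters and leaves the nucleosome. Its signal was 212 after aclarubicin, 416 after doxorubicin, 215 after the combination and 117 in untreated cells. All 3 treated arrays were above the untreated one, by log2 differences of 2.04 (aclarubicin), 1.97 (doxorubicin) and 2.33 (combination), and without scaling by 1.06, 2.15 and 1.09.

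Of the H2A genes, which with H2B form the dimers on the outside of the nucleosome core, 9 of 17 probes were detected. H2AC18, which has a near-identical neighbour, H2AC19, was measured by a pair of probes. The first read 304 after aclarubicin, 1025 after doxorubicin, 431 after the combination and 112 in untreated cells. The second read 229, 831, 330 and 89.6 in the same order. Both probes put doxorubicin first and untreated last, with log2 differences from untreated of 2.61 and 2.62 for aclarubicin, 3.61 and 3.63 for doxorubicin and 3.36 and 3.39 for the combination. Without scaling the aclarubicin differences were 1.75 for each probe and those of the combination 2.30 and 2.35.

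H2AC25 had signals of 251 after aclarubicin, 691 after doxorubicin, 258 after the combination and 235 in untreated cells. Only the doxorubicin signal stood far from the others, and its log2 differences were 1.17, 1.73 and 1.49 with quantile normalization and 0.10, 1.69 and 0.15 without scaling. H2AC20 read 626 after aclarubicin, 610 after doxorubicin, 559 after the combination and 442 in untreated cells, a narrow range, with log2 differences of 1.35, 0.52 and 1.49. Without scaling these were 0.54, 0.50 and 0.36, so that neither gene was 2-fold higher on the aclarubicin arrays on that scale.

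H2AC6 and H2AC17 were not detected in untreated cells. H2AC6 read 196 after aclarubicin, 83.1 after doxorubicin, 187 after the combination and 65.0 in untreated cells. With quantile normalization it was at least 6.59-fold higher after aclarubicin and at least 7.65-fold higher after the combination, and without scaling at least 3.80-fold and 3.60-fold. H2AC17 read 187, 80.1, 174 and 73.5 in the same order, at least 6.26-fold and 7.12-fold higher with quantile normalization and at least 3.59-fold and 3.30-fold higher without scaling. Among the other H2A probes, H2AC12 and H2AC4 had bounds of 2.29-fold and 2.16-fold after aclarubicin with quantile normalization and of 1.32-fold and 1.25-fold without scaling, and H2AC11 was detected only after doxorubicin, at 91.7, with 64.8 in untreated cells. A second H2AC11 probe was detected on no array.

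Of 20 H2B probes, 10 were detected, all 10 of them after aclarubicin. H2BC12 read 2228 after aclarubicin, 2644 after doxorubicin, 2076 after the combination and 1013 in untreated cells, with log2 differences of 1.54, 1.81 and 1.66, and of 1.16, 1.41 and 1.06 without scaling. The treated arrays lay close together, each above the untreated array.

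H2BC11 and H2BC9 were at least 2-fold higher on the aclarubicin arrays with quantile normalization, and not after doxorubicin. H2BC11 read 460 after aclarubicin, 249 after doxorubicin, 444 after the combination and 344 in untreated cells, and its log2 differences were 1.36, -0.61 and 1.61. H2BC9 read 295, 125, 274 and 182 in the same order, with log2 differences of 1.78, -0.78 and 1.97. For both genes doxorubicin gave the lowest of the 4 signals. Without scaling the aclarubicin and combination differences were 0.45 and 0.40 for H2BC11 and 0.81 and 0.69 for H2BC9, all under 2-fold.

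H2BC21 and H2BC8 were not detected in untreated cells. H2BC21 read 196 after aclarubicin, 93.3 after doxorubicin, 187 after the combination and 54.4 in untreated cells. H2BC8 read 176, 59.6, 215 and 56.0 in the same order. With quantile normalization they were at least 6.62-fold and 5.85-fold higher after aclarubicin, and at least 7.68-fold and 8.83-fold higher after the combination. Without scaling the bounds were 3.81-fold and 3.35-fold after aclarubicin, and 3.61-fold and 4.24-fold after the combination. H2BC6 and H2BC4 had bounds of 3.22-fold and 2.32-fold after aclarubicin with quantile normalization, and of 1.79-fold and 1.33-fold, under the threshold, without scaling. After doxorubicin H2BC21 had a lower bound of 0.23 on the log2 scale, and H2BC8, H2BC6 and H2BC4 were not detected.

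H2BC14 was the 1 tested histone probe within 2-fold of untreated cells on both aclarubicin arrays. It read 85.5 after aclarubicin, 64.9 after doxorubicin, not detected there, 83.1 after the combination and 98.5 in untreated cells. Its log2 differences after aclarubicin and the combination were 0.61 and 0.85 with quantile normalization but -0.31 and -0.37 without scaling between arrays, so its direction rests on the scaling.

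H2BC5 has 3 probes for 2 annotated transcripts, and those of 1 transcript were detected. The first read 170 after aclarubicin, 299 after doxorubicin, 173 after the combination and 131 in untreated cells. The second read 100, 575, 104 and 82.9 in the same order. Both signals were highest after doxorubicin. With quantile normalization the log2 differences from untreated were 1.23 and 3.12 for doxorubicin, 1.51 and 1.31 for aclarubicin and 1.84 and 1.70 for the combination, so that on that scale the first probe was lowest of the treated arrays after doxorubicin and only the second kept it highest. Without scaling they were 1.43 and 3.39 for doxorubicin, 0.48 and 0.42 for aclarubicin and 0.51 and 0.49 for the combination. The third probe, designed on the other transcript, had signals of 38.3 to 42.2 and was detected on no array.

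H3 and H4 form the central tetramer of the nucleosome. Of 12 H3 probes, 5 were detected. H3C13 read 402 after aclarubicin, 49.4 after doxorubicin, 227 after the combination and 55.9 in untreated cells, and only the 2 aclarubicin arrays detected it. With quantile normalization it was at least 13.1-fold higher after aclarubicin and at least 9.29-fold higher after the combination. Without scaling the bounds were 8.56-fold and 4.52-fold, and on either scale the aclarubicin bound was the highest among the histone probes in that comparison. It has near-identical copies, H3C14 and H3C15, and the H3C14 probe was detected on no array.

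H3C1 read 145 after aclarubicin, 75.4 after doxorubicin, 178 after the combination and 76.7 in untreated cells, with log2 differences of 2.16, -0.19 and 2.80, and of 1.31, -0.02 and 1.68 without scaling. H3C3 read 186, 72.9, 158 and 121 in the same order, with log2 differences of 1.79, -1.03 and 1.82, and of 0.79, -1.07 and 0.50 without scaling. H3C3 was the 1 histone probe at least 2-fold lower after doxorubicin, although without background correction its difference was -0.65, and without scaling H4C3, at -1.01, was past 2-fold as well, where 8.66% of all probes were called lower. H3C4 read 104, 60.7, 89.4 and 64.3, and H3C12 read 101, 50.3, 74.1 and 49.9. Their bounds after aclarubicin were 3.03-fold and 2.87-fold with quantile normalization and 1.68-fold and 1.61-fold without scaling, and H3C12 was detected on that array alone.

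H4C3 went against the rest. Its signal was 3614 after aclarubicin, 8633 after doxorubicin, 3364 after the combination and 17406 in untreated cells. The untreated array was highest and the aclarubicin arrays lowest, with log2 differences of -2.58, -0.79 and -2.46. H4C3 was 5.97-fold lower after aclarubicin and 5.51-fold lower after the combination, and was the 1 histone probe called lower in each of those comparisons. Under median scaling over the probes detected on all 4 arrays, a scaling chosen after values were seen, it was 2.65-fold and 2.25-fold lower.

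The other detected H4 genes encode the same protein as H4C3, and all 7 further detected H4 probes were at least 2-fold higher after aclarubicin with quantile normalization, of which H4C1 and H4C8 were so without scaling. H4C12 read 392 after aclarubicin, 209 after doxorubicin, 405 after the combination and 215 in untreated cells, with log2 differences of 1.91, -0.16 and 2.23, and of 0.97, -0.04 and 1.03 without scaling. H4C1 read 211, 49.6, 180 and 53.3 in the same order, with bounds on the aclarubicin and combination arrays of 7.15-fold and 7.37-fold with quantile normalization and of 4.15-fold and 3.44-fold without scaling. H4C8 read 191, 90.0, 207 and 71.1, with bounds of 6.43-fold and 8.55-fold, and of 3.69-fold and 4.06-fold without scaling, and a second H4C8 probe was detected on no array. The aclarubicin and combination signals of these 3 genes lay close together and above the other 2 arrays. H4C14, which has a near-identical copy in H4C15, read 102, 116, 102 and 79.1, with log2 differences of 1.43, 0.48 and 1.74, and of 0.55, 0.83 and 0.55 without scaling. H4C2, H4C5 and H4C11 had bounds of 2.99-fold, 2.78-fold and 2.54-fold after aclarubicin with quantile normalization, and of 1.66-fold, 1.56-fold and 1.44-fold without scaling, and were not detected after doxorubicin or in untreated cells.

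**Figure D2:**
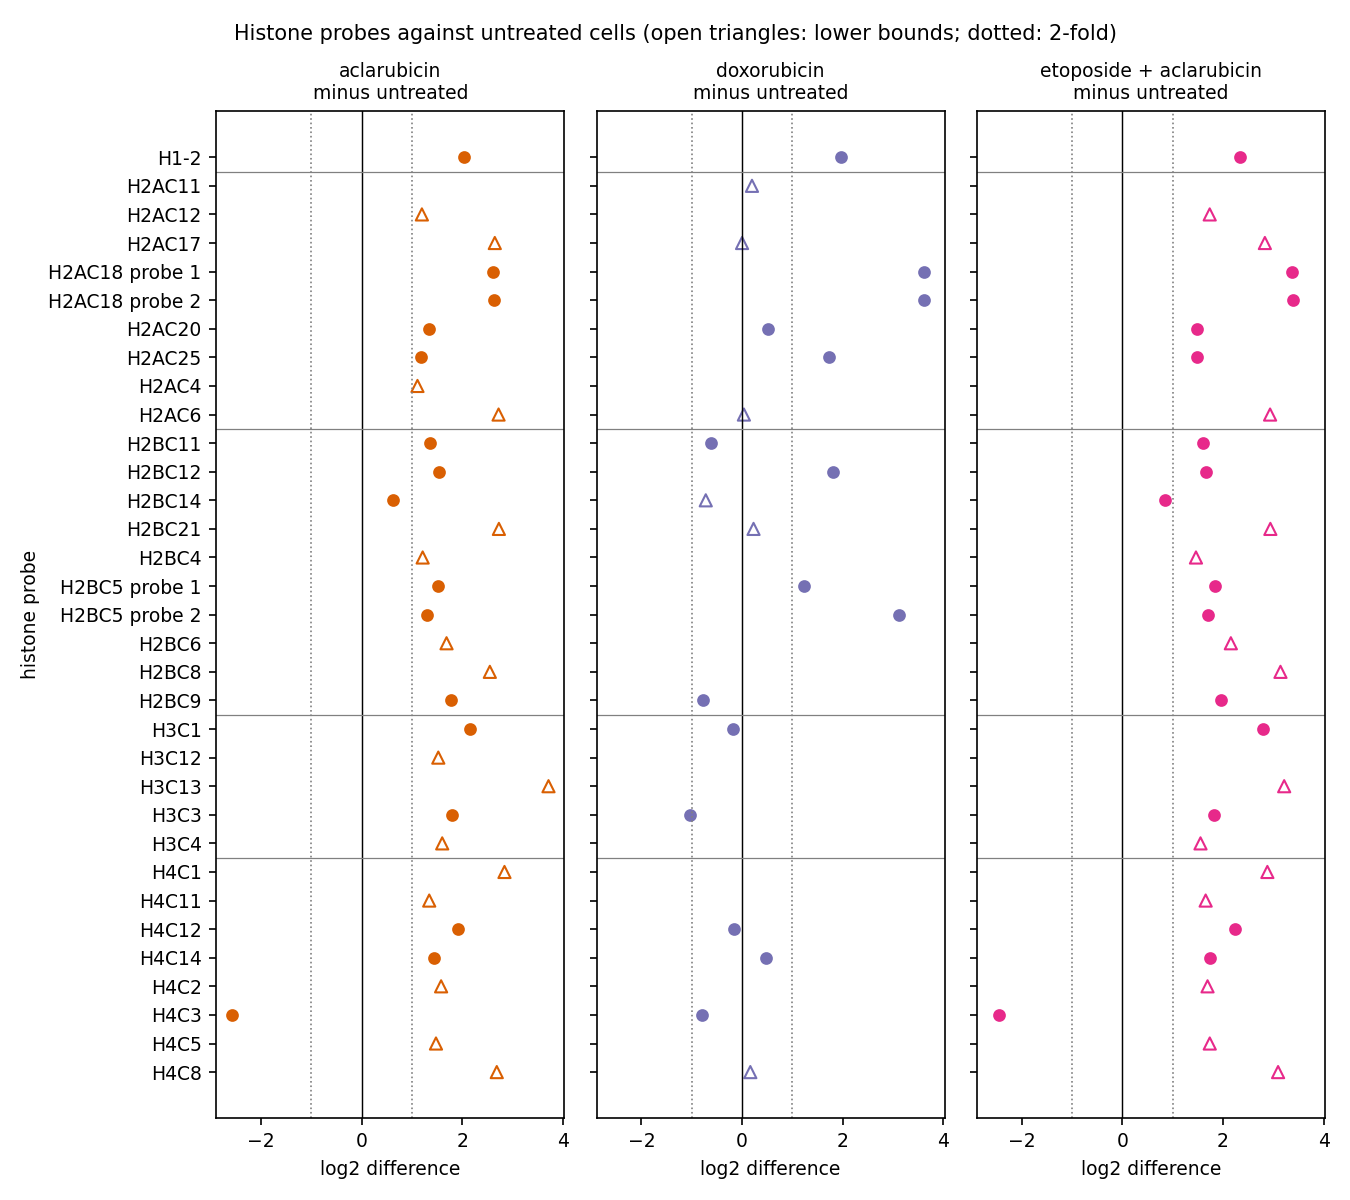
Log2 difference from untreated cells for each detected histone probe after aclarubicin, doxorubicin and the combination, with filled circles where both arrays detected the probe, open triangles for lower bounds and dotted lines at 2-fold; rows with no marker were detected on neither array. H4C3 lies at -2.58 after aclarubicin and -2.46 after the combination while the remaining probes lie above 0, and the doxorubicin panel holds 21 probes on both sides of 0.

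Doxorubicin, the second comparison, was followed by a mixed set of differences. Of 21 histone probes detected after doxorubicin or in untreated cells, 7 were at least 2-fold higher after doxorubicin, where 10.3% of 15496 probes were called higher. One, H3C3, was lower, where 10.1% of all probes were called lower. Without scaling between arrays, 7 of the 21 were at least 2-fold higher and 2 lower, where 12.1% and 8.66% of all probes were. The median log2 difference of the histone probes was 0.20, and that of all probes -0.03. In non-normalized signals with no filter, 32 of 70 histone probes (45.7%) were higher after doxorubicin than in untreated cells, against 50.1% of all probes.

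The 7 higher probes belonged to 5 genes, H1-2, H2AC18, H2AC25, H2BC5 and H2BC12, with log2 differences of 1.23 to 3.63 after doxorubicin. In the other comparisons, which share the untreated array, the differences of these probes were 1.17 to 2.62 after aclarubicin and 1.49 to 3.39 after the combination. Without scaling they were 0.10 to 1.75 and 0.15 to 2.35, with H2AC25 and both detected H2BC5 probes under 2-fold on the aclarubicin arrays. The doxorubicin signal was the highest of the 4 for each of the 7 probes, and the normalized doxorubicin level was the highest for 5 of the 7. The exceptions were H1-2, with normalized log2 levels of 8.13 after aclarubicin, 8.06 after doxorubicin, 8.43 after the combination and 6.10 in untreated cells, and 1 H2BC5 probe, with 7.78, 7.50, 8.11 and 6.27 in the same order. No H3 or H4 probe was called higher after doxorubicin, among 2 H3 and 4 H4 probes tested. The 14 tested probes not called higher after doxorubicin had values of -1.03 to 0.52, 6 of the 21 being bounds, and the other 12 detected histone probes were detected neither after doxorubicin nor in untreated cells.

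The genes called higher after doxorubicin and the other H2A and H2B genes with a doxorubicin value differed in promoter letters, a split noticed after the values were seen and given with no test. Of the 4 H2A and H2B genes at least 2-fold higher after doxorubicin, only H2BC12 held ATTTGCAT in the 250 bases before its start, as printed above, and H2AC18, H2AC25 and H2BC5 did not. Of the 8 other H2A and H2B genes that were tested for doxorubicin and have a promoter sequence, 8 held it. Among these 8, H2AC6, H2AC11, H2AC17 and H2BC21 were not detected in untreated cells and had only lower bounds, of 0.04, 0.20, 0 and 0.23. A 2-fold rise is therefore not excluded for them, and H2BC14 was a bound in the other direction. Only H2AC20, H2BC9 and H2BC11 were measured on both arrays, so the split is one of calls. TATAAA was found in 3 of the 4 and 7 of the 8.

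By position, 58 of the 70 probes belonged to the large cluster on chromosome 6, 9 to the HIST2 cluster and 2 to the HIST3 cluster, both on chromosome 1, and 1 to the single HIST4 gene on chromosome 12. After aclarubicin, 23 of 25 tested probes of the chromosome 6 cluster and 6 of 6 of HIST2 were at least 2-fold higher, with medians of 1.58 and 2.61, where 18.6% of all probes were. Of these 25 and 6 probes, 14 and 2 passed only through the aclarubicin array, which favours higher values. After doxorubicin the counts were 4 of 15 and 2 of 5, where 10.3% of all probes were called higher, with medians of 0 and 0.52. Both HIST2 probes that were higher after doxorubicin were those of H2AC18. The single HIST4 probe, H4C16, was detected on no array.

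The third comparison was that of the drug pair, etoposide plus aclarubicin, with untreated cells. Of 30 histone probes tested, 28 were at least 2-fold higher after the combination, where 20.6% of 13843 probes were called higher, and 1 was lower, where 14.2% of all probes were. The medians were 1.83 for histone probes and 0 for all probes, and 1.78 and 0.39 among probes detected on both arrays. Of the 30, 14 passed only because the combination array detected them, and all 14 were among the 28, so that here too the choice favours higher values. Among the 16 histone probes detected in untreated cells, 14 were higher and 1 lower, where 18.7% and 14.5% of 13521 probes so detected were. Without scaling, 13 of the 30 were at least 2-fold higher, where 2.9% of all probes were. In non-normalized signals with no filter, 57 of 70 histone probes (81.4%) were higher after the combination than in untreated cells, against 39.6% of all probes. By family, 7 of 7 H2A, 9 of 10 H2B, 4 of 4 H3 and 7 of 8 H4 probes were at least 2-fold higher, of which 3, 4, 2 and 5 passed only through detection on the combination array.

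**Figure D3:**
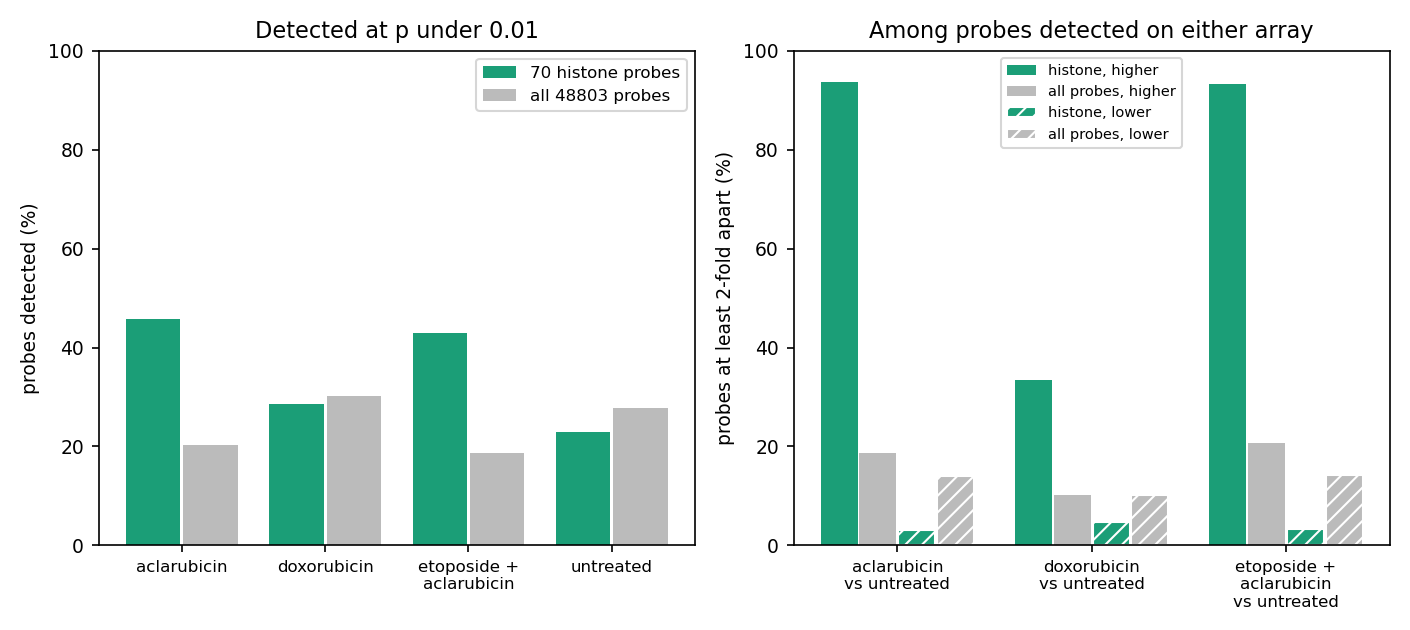
Left, percentage of the 70 histone probes (green) and of all 48803 probes (grey) detected on each array; right, percentage at least 2-fold higher (plain) or lower (hatched) than untreated cells among probes detected on either array. Histone probes reach 93.8%, 33.3% and 93.3% higher from left to right, against 18.6%, 10.3% and 20.6% of all probes.

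Etoposide together with aclarubicin could be set against aclarubicin alone at the same 10 µM of aclarubicin. Of 32 histone probes tested, 0 were at least 2-fold higher and 0 at least 2-fold lower after the combination, where 0.376% and 0.751% of 10116 probes were called higher and lower. The histone differences ran between -0.50 and 0.77, with a median of 0.25 where the median of all probes was 0.01. With quantile normalization 28 of the 32 were above 0, against 5106 of 10116 probes, and without scaling 13 of the 32 were. Probe disagreement in this comparison was 0.17 as an SD per probe, which holds no error shared by a whole array. The highest were those of H2AC18, at 0.76 and 0.77, then H3C1 at 0.64, and the lowest was H3C13 at -0.50. Without scaling between arrays the histone median was -0.05 and that of all probes -0.27, so that the histone probes lay 0.22 above all probes, against 0.24 with quantile normalization. In non-normalized signals 13 of the 33 detected histone probes (39.4%) were higher after the combination than after aclarubicin, against 25.99% of 15695 probes detected on any array. With no filter, 28 of 70 were higher, against 40.8% of all probes.

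**Figure D4:**
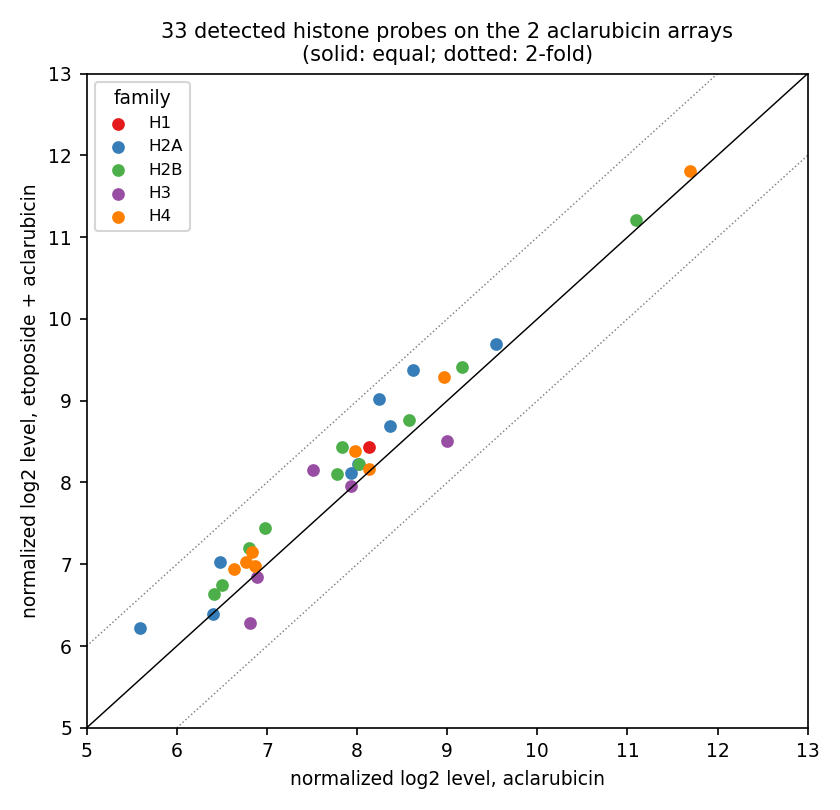
Normalized log2 level of the 33 detected histone probes after etoposide plus aclarubicin (vertical axis) against aclarubicin alone (horizontal axis), coloured by family, with the solid line at equal levels and dotted lines at 2-fold. The points of the 32 tested probes lie between the dotted lines, H4C3 being the one furthest up.

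Aclarubicin and doxorubicin are both anthracyclines and were given at 10 and 9 µM, so their histone values stand side by side and no difference between them is given. The tested sets differ, since 16 of the 32 probes tested for aclarubicin passed through that array alone. On the 15 histone probes detected on all 4 arrays, with quantile normalization, 14 were at least 2-fold above untreated cells after aclarubicin. After doxorubicin 7 were, where 25.1% and 10.8% of 8542 probes so detected were in the same order. With the arrays left unscaled, 5 of the 15 reached 2-fold for aclarubicin and 7 for doxorubicin, so the order of these counts rests on the scaling. Of all probes tested in each comparison, 2.81% and 12.1% were called higher on that scale.

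Scaling moved the size of these differences more than the distance of the histone median from that of all probes. Under quantile normalization the 4 arrays have 1 common distribution of values. Without scaling, and with no bounds applied, the median over all probes was -0.77 for aclarubicin minus untreated, 0.04 for doxorubicin minus untreated and -1.03 for the combination minus untreated. The histone medians on that scale were 1.02, 0.63 and 1.00, so that they lay 1.78, 0.59 and 2.04 above the median of all probes. With quantile normalization the same distances were 1.84, 0.51 and 2.06. With no bounds, probes that passed only through the treated array enter with their undetected untreated values. With bounds applied, the aclarubicin medians of histone and all probes were 1.59 and 0 with quantile normalization. Without scaling they were 0.77 and -0.46, a smaller distance.

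Genes that make, process or degrade histone mRNA did not follow the histone probes. Of 42 tested probes in a list of 34 matched genes, 3 were higher by 2-fold or more and 6 lower on the aclarubicin array, with a median of -0.12, where 18.6% and 14.1% of all probes were called higher and lower. After doxorubicin 0 of 43 were higher and 0 lower (median -0.26), and after the combination 4 of 42 were higher and 8 lower (median -0.22). Of all probes, 10.3% and 10.1% were called higher and lower after doxorubicin, and 20.6% and 14.2% after the combination. Without scaling 0 were higher and 21 lower after aclarubicin, and 0 higher and 24 lower after the combination, where 33.9% and 40.7% of all probes were called lower.

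SLBP, the stem-loop binding protein, was the lowest of that list on both aclarubicin arrays. Its first probe read 139 after aclarubicin, 1143 after doxorubicin, 127 after the combination and 1238 in untreated cells. Its second read 86.5, 528, 73.4 and 725 in the same order. The doxorubicin and untreated signals were close and the aclarubicin ones several times lower, with log2 differences of -2.47 and -2.56 after aclarubicin and -0.10 and -0.53 after doxorubicin. For the combination they were -2.33, and -2.43 as a bound.

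CPSF3, the nuclease that cuts histone pre-mRNA, differed from untreated cells by -1.69 (aclarubicin), 0.38 (doxorubicin) and -1.74 (combination). The highest members were NCBP2, a cap-binding protein, at 1.24 after aclarubicin and 1.53 after the combination by 1 of its 3 probes, the other two giving 0.89 each and 0.88 and 1.05, SNRPD3, a core protein of small nuclear ribonucleoproteins, at 1.17 after aclarubicin, and CPSF1, another cleavage factor, at 1.22 after the combination. In non-normalized signals that NCBP2 probe read 191 on both aclarubicin arrays against 174.5 in untreated cells. SNRPD3 read 240.5 after aclarubicin against 227. CPSF1 read 341 after the combination against 351, so its direction there rests on the normalization. After doxorubicin CCNE1, the cyclin of S phase entry, was highest at 0.55, ERI1, an exonuclease that trims histone mRNA, stood at 0.42, and NCBP2 by its lowest probe (-0.13 and -0.64 by the other two) and SNRPB were lowest at -0.86 and -0.82. NPAT, the coactivator of histone transcription, read 36.0 after aclarubicin, 101 after doxorubicin, 43.6 after the combination and 82.4 in untreated cells, and was detected only on the doxorubicin and untreated arrays.

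**Figure D5:**
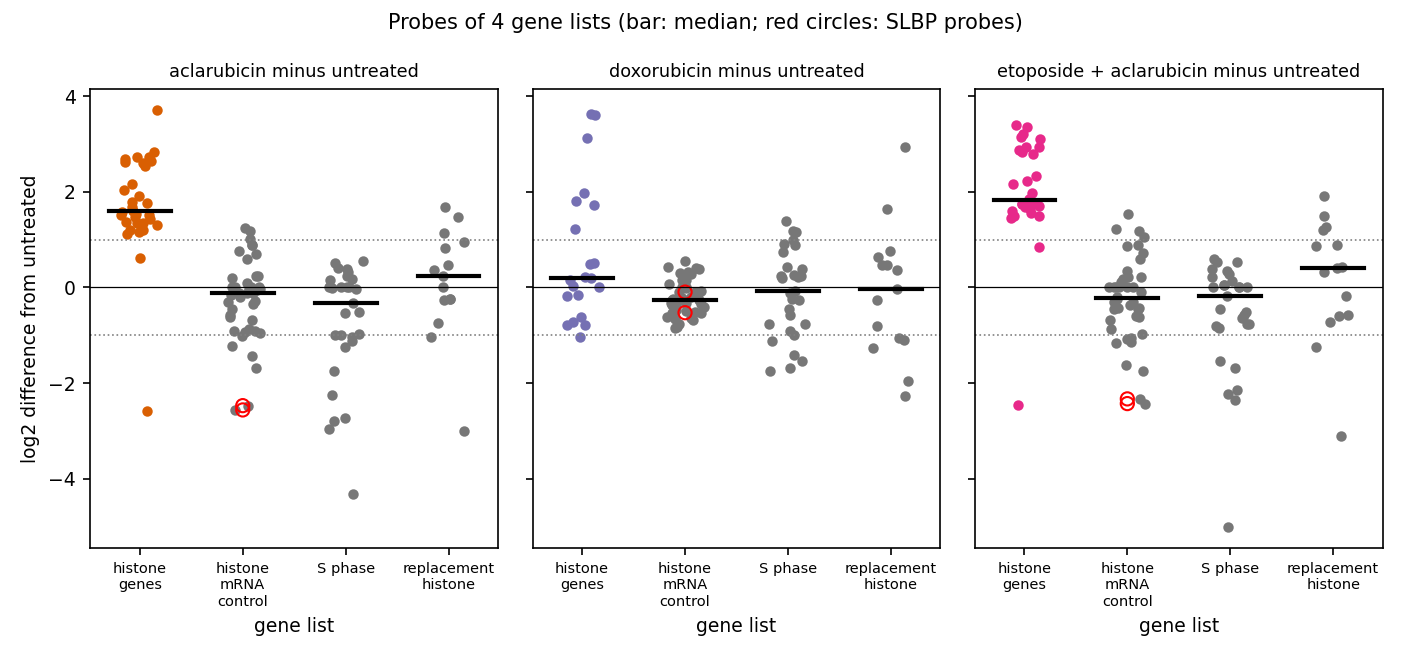
Log2 difference from untreated cells of each tested probe of the histone genes, the histone mRNA control genes, S phase genes and replacement histones, in 1 panel per treated array; black bars are medians, dotted lines mark 2-fold and red circles mark the SLBP probes. Histone medians are 1.59, 0.20 and 1.83 from left to right, and those of the histone mRNA control genes are -0.12, -0.26 and -0.22.

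S phase genes work at the time when histone genes are normally used, and most of their probes were within 2-fold of untreated cells. Of 29 tested probes, 0 were at least 2-fold higher and 9 lower after aclarubicin (median -0.33), 3 higher and 5 lower after doxorubicin (median -0.08), and 0 higher and 6 lower after the combination (median -0.18). The shares of all probes called higher were 18.6%, 10.3% and 20.6% in the same order, and those called lower 14.1%, 10.1% and 14.2%. Above 0 lay 8 probes after aclarubicin and 10 after the combination. Without scaling 13 were lower after aclarubicin and 14 after the combination, where 33.9% and 40.7% of all probes were. CCNA2, the S and G2 phase cyclin, differed by -4.33 after aclarubicin, and PCNA, the sliding clamp of DNA polymerase, by -2.96. After the combination CCNA2 was not detected and was at least 32.0-fold lower with quantile normalization, and PCNA differed by -2.36. The highest were MCM7, part of the replicative helicase, at 0.56 after aclarubicin and 0.60 after the combination by the dimmer of its 2 detected probes, RRM2, a ribonucleotide reductase subunit, at 0.51 after aclarubicin, and MCM5, another helicase subunit, at 0.54 after the combination. The brighter MCM7 probe, with a signal of 4878 in untreated cells against 236 for the dimmer one, gave log2 differences of -0.50 and -0.46 on the aclarubicin and combination arrays, so that with quantile normalization the probes disagree in direction. In non-normalized signals the dimmer MCM7 probe read 168 after aclarubicin and 143 after the combination, both below untreated cells. RRM2 read 1061 after aclarubicin against 1098 in untreated cells, and MCM5 read 644 after the combination against 882. The direction of these positive differences rests on the normalization. After doxorubicin PCNA and RFC4, a clamp loader subunit, were highest at 1.38 and 1.18, each by 1 of its detected probes. A dimmer PCNA probe gave 0.39, and the brighter RFC4 probe gave 0.996, under 2-fold. POLA1, the DNA polymerase that starts new strands, and RRM2 were lowest at -1.74 and -1.69, with a bound of -0.46 by a dimmer POLA1 probe. Without scaling 1 S phase probe was at least 2-fold higher after doxorubicin and 4 were lower, where 12.1% and 8.66% of all probes were. How far the histone values depend on the share of cells in S phase was not tested.

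Replacement histones, whose mRNAs mostly carry poly(A) tails and are mostly made outside S phase too, showed no common direction. Of 15 tested probes, 3 were at least 2-fold higher and 2 lower after aclarubicin (median 0.25), 2 higher and 5 lower after doxorubicin (median -0.03), and 4 higher and 2 lower after the combination (median 0.40). Of all probes, 18.6%, 10.3% and 20.6% were called higher in the same order, and 14.1%, 10.1% and 14.2% lower. Without scaling 0 were higher and 4 lower after aclarubicin, and likewise after the combination, where 33.9% and 40.7% of all probes were called lower. H2AJ, an H2A form, was highest after doxorubicin at 2.93, with signals of 452 after aclarubicin, 2109 after doxorubicin, 378 after the combination and 390 in untreated cells. The probes of MACROH2A1, an H2A form with an added large domain, disagreed: the dimmest of its 3 detected probes differed by 1.68, 1.64 and 1.91 after aclarubicin, doxorubicin and the combination, the middle one by 0.95, 0.47 and 0.86, and the brightest by -0.27, 0.47 and -0.60. H2AZ2 was 2.79-fold higher after aclarubicin and 2.82-fold higher after the combination with quantile normalization. Its signals were 240 after aclarubicin, 126 after doxorubicin, 199 after the combination and 186 in untreated cells. The lowest were CENPA, the H3 form of centromeres, at -2.99 after aclarubicin and -1.26 after doxorubicin by 1 of its 2 probes, with a bound of -3.10 after the combination, and H2AX, the form marked at DNA breaks. The second CENPA probe gave -0.25, -1.05 and -0.57. The brighter H2AX probe differed by -1.03, -2.26 and -1.25 and the other by -0.24, -1.96 and -0.18, so that both probes were past 2-fold in the doxorubicin comparison and 1 of them in the other two.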

How the data were processed

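The members, lists and tests were chosen with earlier results of these data known. The authors deposited non-normalized probe intensity values and a detection p-value for each, per the file headers. Their deposited normalized values appear to be on a log2 scale (medians over all probes 2.18 for aclarubicin, 2.30 for doxorubicin, 2.12 for the combination and 2.28 for untreated). The submitters' processing notes name lumi; scale and centring stay unknown, and the series' value table was identical (largest difference 0).

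Intensities were background-corrected by normexp from the detection p-values (limma 3.58.1 in R 4.3.3, offset 16), quantile-normalized and log2-transformed. Probes detected (p under 0.01) on either array of a comparison were set against a 2-fold threshold. A bound used, for the array without detection, the probe's own level or the lowest level detected there, whichever was higher; bounds of the wrong sign were set to 0. All 70 histone probes matched a current Entrez entry and 0 symbols changed. Values per array are given for the 3 probes of highest mean level in each family, those opposite to the members' median and genes with several detected probes. H2AC6, H2AC17, H2BC21, H2BC8, H4C1, H4C14 and the H2AJ signals were added after values were seen. Of other lists, the 2 highest and 2 lowest genes, SLBP and NPAT are named. The calling was tested on simulated data, and the number of arrays limits the precision. Python 3.11.15, numpy 2.4.6, pandas 2.3.3 and matplotlib 3.10.9 were used. Alternatives were no background correction, 3 other scalings, the authors' normalized values, 2 other filters, 2 other thresholds and 1 probe per gene.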

Additional observations from a re-analysis of the deposited data

How the results depend on the processing

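Each group has 1 array, so no test was made. No paired analysis was possible because each group holds 1 array. For aclarubicin minus untreated, 30 higher histone probes and a median of 1.59 became 12 and 0.74 under median scaling, and 12 and 0.77 without scaling. Of all probes, 2.52% and 2.81% were called higher at these 2 settings. The median of all probes lay at background, so this median scaling hardly moved the arrays; median scaling over probes detected on all 4 arrays, chosen after seeing the data, kept the counts within 1.5 times in this and the combination comparison. The count was 14 of 15 among probes detected on all 4 arrays and 16 at 3-fold, where 25.1% and 4.91% of all probes were called higher. The median was 2.21 in the authors' normalized values and 0.96 with no detection filter. For the combination minus untreated, 28 higher and a median of 1.83 became 14 and 0.65 under median scaling, and 13 and 0.64 without scaling. Of all probes, 2.97% and 2.90% were called higher at these 2 settings. The count was 14 of 15 among probes detected on all 4 arrays, where 28.3% of all such probes were called higher. The median was 2.52 in the authors' values and 1.07 with no detection filter. For doxorubicin minus untreated, the 1 lower probe became 0 without background correction and at 3-fold. The count became 2 under both median scalings and without scaling, 3 in the authors' values and 5 at 1.5-fold. The shares of all probes called lower were 6.61% without background correction and 2.76% at 3-fold. They were 8.66% under median scaling, 8.97% under that over probes detected on all 4 arrays and 8.66% without scaling. In the authors' values 15.6% were lower, and at 1.5-fold 22.3%. The median of 0.20 was 0.52 among probes detected on all 4 arrays. For the combination minus aclarubicin, the median of 0.25 was -0.014 under median scaling and -0.050 without scaling, with medians of all probes of -0.236 and -0.272 at these settings. At 1.5-fold 4 probes were higher, where 4.42% of all probes were called higher. No histone probe past 2-fold turned its direction under the scalings, the uncorrected signals or the authors' values. Signal close to background limits the 18 probes not detected on all 4 arrays to bounds in at least 1 comparison or to no value.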
